A study of Homo sapiens with 6 samples.

Results

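Zinc finger genes numbered ZNF700 to ZNF899 were followed in NB4 cells, a human acute promyelocytic leukemia line that carries the PML-RARA fusion. The members are all gene symbols of the count tables made of ZNF and a number in that range, with an optional final letter, and there were 106 of them among 23368 symbols. RNA was sequenced from cultures that were not treated and from cultures given maltonis, a small molecule derived from maltol, at 10 µM for 24 h, with 3 libraries per group. All libraries came from this single line, at a single dose and time point. The study calls them biological replicates, and the p-values below measure the spread between these libraries.

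Most human C2H2 zinc finger genes encode DNA-binding proteins in which a row of small finger modules, each folded around a zinc ion, reads a few bases per finger. Many also carry a KRAB domain near the N-terminus, which recruits the scaffold protein TRIM28 (KAP1), and TRIM28 in turn brings in the methyltransferase SETDB1, HP1 proteins and histone deacetylases that write and keep chromatin marked with H3K9me3. KRAB zinc finger proteins are best known for silencing transposable elements, and their genes arose largely by tandem duplication, so that they stand in clusters of near relatives, above all on chromosome 19.

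The number in a ZNF symbol is a naming order and not a protein class, so the KRAB content of the members was checked in coding sequences of GENCODE 29, which were available for 95 of the 106 and were translated. A KRAB A box pattern was found in 64 of these 95 and not in 31. The pattern missed ZNF714, ZNF763 and ZNF799, which are commonly listed as KRAB zinc finger genes, so that 64 is a lower count. At least 1 C2H2 finger was found in 89 members, with a median of 9 fingers per protein and a range from 0 to 34, the highest in ZNF729. RefSeq lists 11 of the members as pseudogenes. The members lie on 16 chromosomes, with 51 on chromosome 19, 18 on chromosome 7, 9 on chromosome 16 and 28 on the others.

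Library totals ran from 18492154 to 38205483 counts, and 3 counts corresponded to 0.0828 CPM (counts scaled to library size, with TMM factors) in the deepest and to 0.16 CPM in the shallowest. The summed level of 10 promyelocyte markers lay between 14613 and 17091 CPM without treatment and between 8943 and 9440 CPM after maltonis, and most of it was MPO. The markers moved both ways, with MPO, MYB, CEBPA, CEBPE, SPI1 and CD33 lower, CTSG, AZU1 and ELANE higher and PRTN3 not called, and ELANE had only 3, 6 and 2 counts without treatment. The summed level of 8 markers of other cell types lay between 25.5 and 31.2 CPM without treatment and between 26.5 and 33.3 CPM after maltonis, most of it from EPCAM, which fell by 0.60 on the log2 scale, and PECAM1, which rose by 0.74, while HBA1, HBB and MS4A1 had 0 counts in all 6 libraries. The part of these marker changes in the results below was not tested. A number in the library names separates replicate 1 of both groups from replicates 2 and 3, and what it stands for is not stated. These sets are labelled code A and code B here. In a bulk library, fewer cells that express a gene and less RNA of it per cell cannot be told apart.

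Of the 106 members, 86 passed the filter on low counts and were tested. The other 20 were at or near the limit of detection. Of these, 9 had 0 counts in all 6 libraries, namely ZNF705D, ZNF705G, ZNF711, ZNF735, ZNF812, ZNF827, ZNF835, ZNF847P and ZNF883, and the other 11 had at most 14 counts in any library. At the depth of these libraries 0 counts allow a level of up to 0.0828 to 0.16 CPM per library, which covers counting error only. ZNF711, linked to X-linked intellectual disability, and ZNF827, known from telomeres kept by recombination, were thus not detected in NB4 cells. ZNF750, a regulator of epidermal differentiation, had between 1 and 11 counts.

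Per length of annotated exons the tested members were expressed at low levels. Their median without treatment was 2.05 RPKM (CPM per 1000 bases of exon), against 6.33 RPKM over the 12601 tested genes with a known length. Only 10 members had a mean RPKM above 10 in either group. The highest was ZNF768, a protein that binds a repeat-derived motif, at 34.0, 26.5 and 24.7 RPKM without treatment and 35.5, 31.1 and 29.7 RPKM after maltonis. The groups overlapped, and the log2 fold change of 0.18 ± 0.12 (SE) did not pass the test (adjusted p = 0.21), although it did with code B alone (0.25, adjusted p = 0.00439) and without not treated replicate 1 (0.31, adjusted p = 0.00872). ZNF830, a protein needed in early mouse development, was second by the mean over both groups at 19.3, 18.8 and 19.1 RPKM without treatment and 27.7, 28.0 and 28.2 RPKM after maltonis. It was higher in every treated library and rose by 0.55 ± 0.06 on the log2 scale (SE, adjusted p = 3.06e-05, from the quasi-likelihood test of edgeR adjusted by Benjamini-Hochberg over all genes tested, as are all adjusted p-values here).

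**Figure D1:**
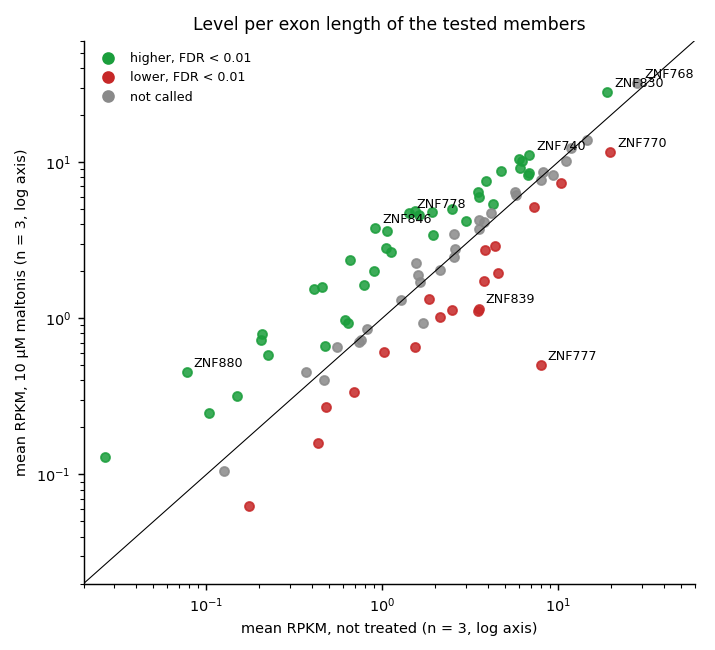
Mean RPKM of each of the 86 tested members without treatment (x axis) and after maltonis (y axis), both on log axes with n = 3, where the line marks equal levels and colors give the call at an FDR under 0.01. Most points lie below 10 RPKM, members called higher had a median of 1.27 RPKM without treatment, and ZNF777 lies farthest below the line.

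After maltonis more members rose than fell. At an FDR under 0.01, 38 of the 86 tested members were higher (44.2%), where 31.9% of all 13209 tested genes were higher. In the other direction 19 members were lower (22.1%), where 32.1% of all genes were lower, and 29 members were not called. With a change beyond 2.5-fold in addition, 15 members were higher (17.4%) against 9.95% of all genes, and 5 were lower (5.81%) against 10.4% of all genes, and without maltonis replicate 2 the count of such lower members was 3. The share of higher calls thus lay above the background and the share of lower calls below it, as a description without a test of the list. All 38 higher and all 19 lower members had groups that did not overlap, and 4 uncalled members also did not overlap. This gave 42 members with every treated library above every untreated one (48.8%, where 38.8% of all genes did so) and 19 with every treated library below (22.1%, where 37.8% of all genes did so).

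The median log2 fold change of the tested members was 0.27, with quartiles at -0.20 and 0.94, beside a median of 0.01 over all tested genes. Without not treated replicate 2 it was 0.16. Among the 423 other symbols made of ZNF and a number, 365 were tested, of which 129 were higher (35.3%) and 85 lower (23.3%), with a median of 0.11. Beyond 2.5-fold, 21 of these 365 were higher and 32 lower. The members' own sum moved little in absolute terms. It was 1582, 1496 and 1534 CPM without treatment (1537 ± 43.1, SD, n = 3) and 1705, 1722 and 1716 CPM after maltonis (1714 ± 8.54, SD, n = 3), so that every treated library lay above the untreated ones.

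**Figure D2:**
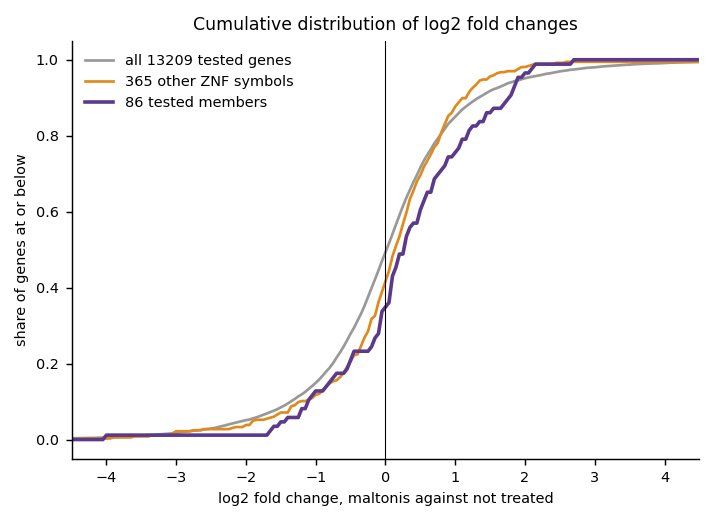
Cumulative share of genes (y axis) at or below a log2 fold change of maltonis against not treated (x axis) for the 86 tested members, 365 other ZNF symbols and all 13209 tested genes. Between about 0 and 1.5 the curve of the members lies to the right of both others, with medians of 0.27, 0.11 and 0.01.

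Since the groups of every called member did not overlap, its direction within the libraries of code A and within those of code B was fixed. The median differences of the higher members were 0.96 in A and 0.87 in B, and those of the lower members were -0.77 and -0.80, on a log2(CPM + 0.5) scale that understates the change of low genes. The median over all tested members was 0.12 in A, which holds 1 library per group, and 0.31 in B.

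**Figure D3:**
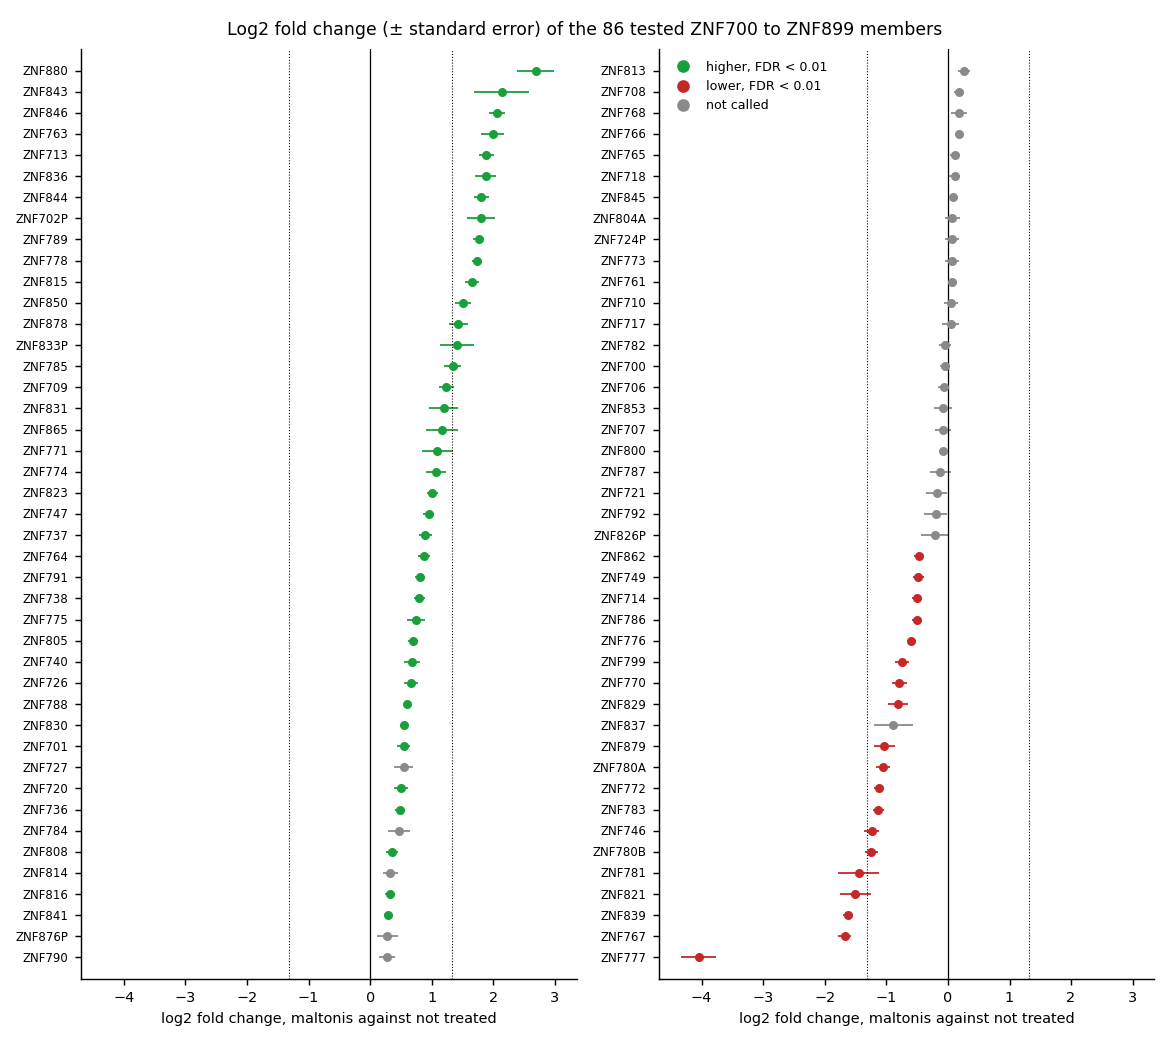
Log2 fold change of maltonis against not treated (x axis) with its standard error as bars for each of the 86 tested members, ordered by size and split over both panels, with dotted lines at a 2.5-fold change and colors for the call at an FDR under 0.01. The increases run up to 2.69 for ZNF880, and ZNF777 at -4.05 stands apart from the next decrease, ZNF767 at -1.68.

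Among the 10 leading increases, 7 had a KRAB match, 2 were pseudogenes and the other was ZNF763, and most began from a low level. Of all 86 tested members 55 had a KRAB match and 8 were pseudogenes, and the difference in shares was not tested. The increases were ranked by fold, with a minimum mean count asked only of the higher group, which favors a low start. ZNF880, with a KRAB match and 13 fingers, had 0.43, 0.19 and 0.24 CPM without treatment and 1.34, 1.97 and 1.74 CPM after maltonis. The lowest treated library lay more than 3 times above the highest untreated one, and the log2 fold change was 2.69 ± 0.30 (SE, adjusted p = 4.69e-05). On average the untreated libraries held 7.67 counts of it, so that its fold rests on few reads.

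ZNF846, with a KRAB match and 11 fingers, had 3.51, 3.01 and 4.16 CPM without treatment and 14.1, 15.2 and 15.1 CPM after maltonis. Its treated libraries agreed closely and none came near the untreated ones, with a log2 fold change of 2.06 ± 0.13 (SE, adjusted p = 1.38e-06). ZNF763 had 0.69, 0.52 and 0.54 CPM without treatment and 2.12, 2.24 and 2.45 CPM after maltonis. It stood well apart in both groups and rose by 1.99 ± 0.19 on the log2 scale (SE, adjusted p = 1.63e-05).

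ZNF713, in which a CGG repeat expansion has been tied to a fragile site, had 2.61, 2.95 and 2.41 CPM without treatment and 10.3, 9.3 and 10.0 CPM after maltonis, a log2 fold change of 1.89 ± 0.12 (SE). ZNF836, with 24 fingers the longest array among the leading increases, had 3.51, 2.65 and 2.23 CPM without treatment and 11.4, 9.12 and 9.65 CPM after maltonis. ZNF844 had 3.20, 3.15 and 2.68 CPM without treatment and 10.7, 9.57 and 11.2 CPM after maltonis. In each of these 3 genes the treated libraries lay more than 2.5-fold above the untreated mean.

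The best measured increase was that of ZNF778, with a KRAB match and 14 fingers. Its libraries held 15.7, 15.9 and 16.4 CPM without treatment and 49.4, 56.0 and 54.4 CPM after maltonis, a log2 fold change of 1.73 ± 0.08 (SE, adjusted p = 2.01e-07), which is the lowest adjusted p among the higher members. ZNF789, with a KRAB match and 8 fingers, had 7.46, 6.73 and 7.18 CPM without treatment and 24.98, 22.93 and 24.38 CPM after maltonis, with a log2 fold change of 1.76 ± 0.09 (SE). Both genes varied far less between replicates than between groups.

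Of 8 tested members annotated as pseudogenes, 4 were higher and 2 lower, where 31.9% and 32.1% of all genes were, and without not treated replicate 3, maltonis replicate 2 or maltonis replicate 3 only 1 was lower. ZNF702P had 0.80, 1.02 and 1.12 CPM without treatment and 2.48, 3.88 and 3.97 CPM after maltonis, and ZNF815 had 3.78, 3.53 and 3.35 CPM without treatment and 12.2, 10.6 and 10.8 CPM after maltonis. Neither overlapped between groups, with log2 fold changes of 1.80 ± 0.23 and 1.66 ± 0.11 (SE). Since pseudogenes share sequence with intact relatives, how the authors' counting split such reads bears on these values.

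Among the decreases ZNF777, a KRAB zinc finger gene on chromosome 7 with 9 fingers, changed by far the most. It had 34.6, 20.8 and 22.0 CPM without treatment and 2.32, 1.25 and 1.28 CPM after maltonis, from counts of 649, 755 and 731 that became 45, 42 and 36. Although its untreated libraries differed among themselves, with replicate 1 the highest in both groups, the lowest of them was several times above the highest treated library. The log2 fold change was -4.05 ± 0.28 (SE, adjusted p = 2.58e-06), a 16.5-fold decrease, and the differences within codes A and B were -3.63 and -3.64.

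ZNF767, annotated as a pseudogene and a near neighbor of ZNF777, had 14.16, 14.02 and 14.23 CPM without treatment and 5.06, 3.97 and 4.36 CPM after maltonis, a log2 fold change of -1.68 ± 0.11 (SE, adjusted p = 1.7e-06). ZNF839, which had neither a KRAB match nor a match to the finger pattern, had 19.5, 20.7 and 19.3 CPM without treatment and 6.45, 6.29 and 6.64 CPM after maltonis. Its replicates agreed closely, with a log2 fold change of -1.62 ± 0.08 (SE, adjusted p = 4.94e-07). ZNF821, with 2 fingers and no KRAB match, fell from 1.54, 1.46 and 1.39 CPM to 0.77, 0.39 and 0.46 CPM, and its treated libraries held 13.7 counts on average.

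ZNF746, known as PARIS, is a parkin substrate that represses the coactivator gene PPARGC1A. It had 37.6, 37.4 and 39.8 CPM without treatment and 19.31, 13.69 and 16.04 CPM after maltonis, a log2 fold change of -1.24 ± 0.12 (SE, adjusted p = 1.72e-05). The treated libraries spread more than the untreated ones but did not reach them. ZNF783 had 16.3, 17.3 and 16.5 CPM without treatment and 6.97, 7.78 and 8.09 CPM after maltonis, with a log2 fold change of -1.13 ± 0.09 (SE).

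The neighbors ZNF780A and ZNF780B on chromosome 19, near relatives whose proteins have 17 and 21 fingers, fell together. ZNF780A had 19.3, 15.8 and 16.2 CPM without treatment and 8.21, 7.45 and 8.91 CPM after maltonis, and ZNF780B had 14.96, 12.86 and 14.92 CPM without treatment and 6.19, 5.87 and 5.96 CPM after maltonis. Their log2 fold changes were -1.06 ± 0.11 and -1.24 ± 0.10 (SE). Because the pair shares sequence, reads may have been split between them and the separate values are uncertain.

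ZNF772, with a KRAB match and 10 fingers, had 23.2, 22.5 and 23.6 CPM without treatment and 10.5, 10.5 and 10.9 CPM after maltonis, with a log2 fold change of -1.12 ± 0.07 (SE, adjusted p = 1.93e-06). ZNF879, on chromosome 5, had 2.93, 2.35 and 2.80 CPM without treatment and 1.29, 1.16 and 1.45 CPM after maltonis, with a log2 fold change of -1.04 ± 0.17 (SE). In both genes every treated library was lower than every untreated one.

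**Figure D4:**
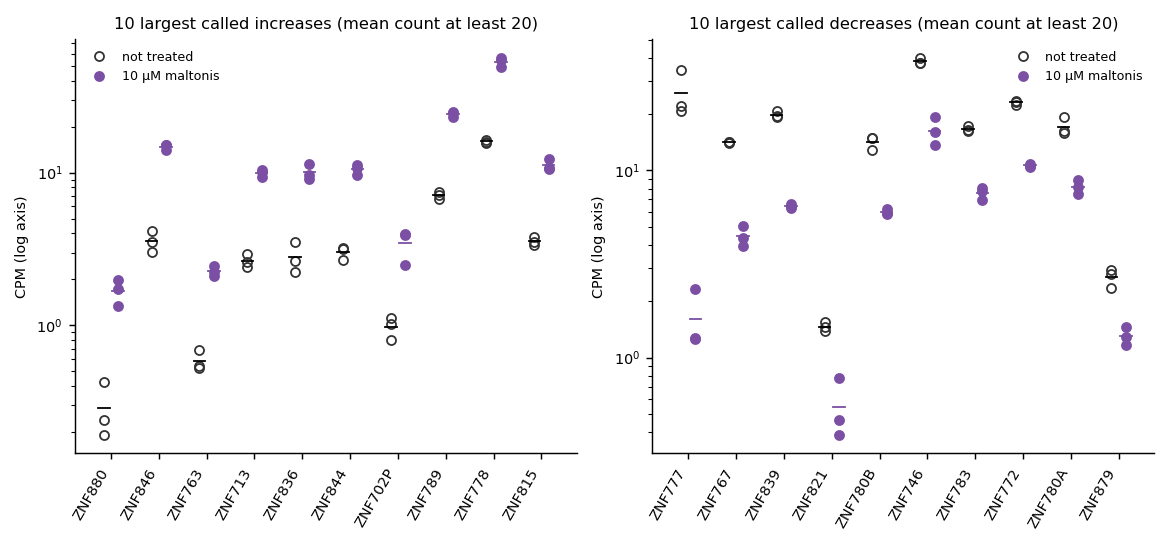
CPM of each library on a log axis for the 10 largest called increases and the 10 largest called decreases among members chosen for groups that do not overlap and a mean of at least 20 counts in the higher group, with open points for not treated, filled points for 10 µM maltonis and short lines for group means (n = 3). Levels without treatment run from ZNF880 below 0.5 CPM to ZNF746 at a mean of 38.3 CPM, and the widest gap between groups is that of ZNF777.

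None of the 6 members with the highest CPM changed beyond 2.5-fold. ZNF770 was the most abundant without treatment by this measure, with 90.8, 114 and 121 CPM, and fell to 54.05, 64.85 and 69.73 CPM, a log2 fold change of -0.79 ± 0.12 (SE, adjusted p = 0.000427). ZNF740 rose from 50.1, 66.1 and 70.9 CPM to 88.9, 108 and 104 CPM, with a log2 fold change of 0.69 ± 0.13 (SE, adjusted p = 0.00124). Without maltonis replicate 2 or 3 its log2 fold change was 0.60 or 0.63 and the adjusted p was 0.0115 or 0.0113, which ends the call. In both genes replicate 1 was the lowest of each group, and the groups did not overlap.

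The other 4 of them did not pass the test, with log2 fold changes of -0.08 ± 0.06 for ZNF800, 0.06 ± 0.12 for ZNF710, -0.18 ± 0.17 for ZNF721 and 0.18 ± 0.12 for ZNF768 (SE). ZNF800, a repressor in the endocrine lineage of the gut, had 86.3, 86.8 and 81.5 CPM without treatment and 80.2, 81.8 and 78.4 CPM after maltonis. Its replicates agreed so closely that the standard error is among the smallest of the members, and the groups still overlapped. ZNF804A, known from genetic association with schizophrenia, was expressed at 16.7 ± 0.96 CPM without treatment and at 17.6 ± 2.87 CPM after maltonis (SD, n = 3) and was not called.

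Grouped by protein features, the calls were spread over the classes, and 31.9% of all genes were higher and 32.1% lower. Of 55 tested members with a KRAB match, 25 were higher (45.5%) and 12 lower (21.8%), with a median log2 fold change of 0.27. Of 24 tested members with a coding sequence and no match, 9 were higher and 6 lower, with a median of 0.06. Without not treated replicate 2 or without maltonis replicate 2, 20 of the 55 and 6 of the 24 were higher. The difference between these classes was not tested.

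By the number of fingers, again beside 31.9% and 32.1% of all genes, 7 of 15 tested members with 0 to 4 fingers were higher and 6 lower, 9 of 21 with 5 to 9 fingers were higher and 3 lower, 8 of 24 with 10 to 14 fingers were higher and 6 lower, and 10 of 19 with 15 or more were higher and 3 lower. The count of 10 became 6 without not treated replicate 2 or without maltonis replicate 2. The median number of fingers was 11 for members called higher, 9.5 for members called lower and 11 for members not called. Members called higher had a median of 1.27 RPKM without treatment and 3.69 RPKM after maltonis, and members called lower had 3.52 and 1.13 RPKM. These levels come from the contrast that made the calls and are a description only.

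By chromosome, where 31.9% of all genes were higher and 32.1% lower, 22 of 47 tested members on chromosome 19 were higher and 9 lower, with a median log2 fold change of 0.29. On chromosome 16, 7 of 9 were higher and only ZNF821 was lower, with a median of 0.95. Leaving out 1 library at a time gave 5 to 8 of 9 higher on chromosome 16 and 16 to 23 of 47 on chromosome 19. In these fits 26.4% to 31.9% of all genes were higher. On chromosome 7, 5 of 14 were higher and 6 lower, with a median of -0.08. On all other chromosomes together 4 of 16 were higher and 3 lower, and without maltonis replicate 3 only 2 were higher.

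Consecutive members with at most 5 other protein-coding genes between them in the RefSeq gene order formed 59 runs, of which 11 had 3 or more members and held 50 members in all. The longest 2 runs, with 7 members each, held mostly higher and mostly lower members, beside shares of 31.9% and 32.1% among all genes. In the run on chromosome 19 from ZNF833P through ZNF823, ZNF700, ZNF763, ZNF878 and ZNF844 to ZNF788, 6 of 7 members were higher, with a median log2 fold change of 1.41. The exception was ZNF700, with 28.1, 26.7 and 24.5 CPM without treatment and 25.3, 25.4 and 25.8 CPM after maltonis, whose log2 fold change was -0.05 ± 0.07 (SE, adjusted p = 0.56). Without maltonis replicate 2, ZNF833P also lost its call and 5 of 7 were higher.

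The 6 that rose in this run differed widely in level. ZNF788 was the most abundant in CPM, with 35.7, 34.6 and 33.8 CPM without treatment and 48.4, 53.9 and 54.9 CPM after maltonis, and it had the smallest rise, with a log2 fold change of 0.60 ± 0.07 (SE). ZNF833P was the lowest, with 0.37, 0.28 and 0.42 CPM without treatment and 0.72, 1.01 and 1.03 CPM after maltonis. ZNF823 about doubled, from 6.44, 5.99 and 6.0 CPM to 12.6, 11.7 and 12.6 CPM, and ZNF878 had 1.92, 1.60 and 1.99 CPM without treatment and 4.44, 5.55 and 4.68 CPM after maltonis. The other genes between these members, 5 of them tested and all of them ZNF symbols, held 2 that were higher and 0 that were lower.

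In the run on chromosome 7 from ZNF786 through ZNF783, ZNF777, ZNF746, ZNF767 and ZNF862 to ZNF775, 6 of 7 members were lower, with a median log2 fold change of -1.13, and ZNF775 at the far end was higher. ZNF775 had 10.2, 8.3 and 7.14 CPM without treatment and 15.6, 14.2 and 12.8 CPM after maltonis, a log2 fold change of 0.74 ± 0.14 (SE, adjusted p = 0.00117). The outer members of the lower stretch changed the least, with log2 fold changes of -0.51 ± 0.08 for ZNF786 and -0.47 ± 0.09 for ZNF862 (SE). Of 9 tested genes that lie between these members, 4 were lower, 1 was higher and 4 were not called.

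The other runs differed among themselves, again beside 31.9% higher and 32.1% lower among all genes. On chromosome 19, the run of ZNF841, ZNF836, ZNF766, ZNF880, ZNF808 and ZNF701 had 5 of 6 higher and 0 lower. On chromosome 16 the run of ZNF771, ZNF768, ZNF747, ZNF764 and ZNF785 had 4 of 5 higher and 0 lower. The first of these counts fell to 2 of 6 without not treated replicate 2 or without maltonis replicate 2, and to 3 without maltonis replicate 3. The second fell to 3 of 5 without not treated replicate 2, maltonis replicate 1 or maltonis replicate 2. In contrast, the run of ZNF845, ZNF765, ZNF761 and ZNF813 on chromosome 19 had 0 of 4 called, with log2 fold changes between 0.06 and 0.26, and the run of ZNF718, ZNF876P, ZNF732 and ZNF721 on chromosome 4 had 0 of 3 tested members called. Further runs on chromosome 19 held lower members. Those from ZNF826P to ZNF738 and from ZNF799 to ZNF791 each had 2 higher and 1 lower, of 5 and 3 tested members. The run from ZNF850 to ZNF829 had 1 of 3 higher and 1 lower, and that from ZNF749 to ZNF773 had 0 of 3 higher and 2 lower. No count of neighbors with the same call was tested, and near relatives in a run share sequence and so may share reads.

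**Figure D5:**
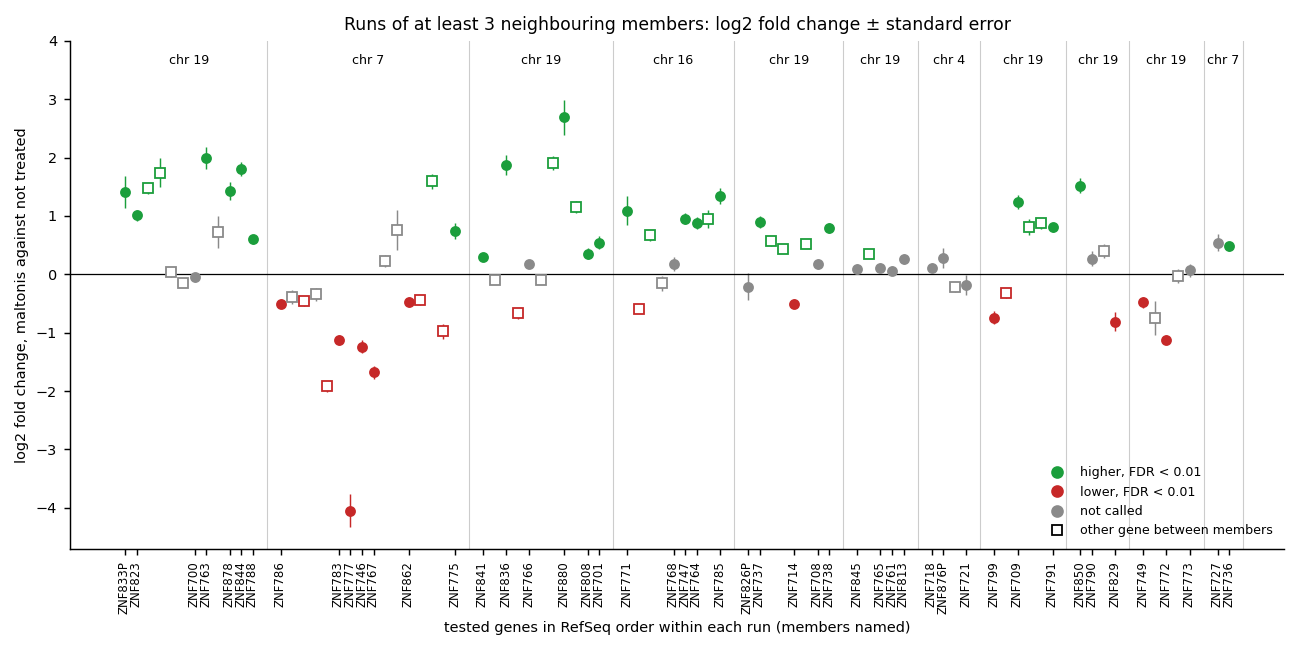
Log2 fold change of maltonis against not treated (y axis) with its standard error for the tested genes of the 11 runs with at least 3 members, in RefSeq gene order along the x axis, where filled circles are members, open squares are other genes between them and colors give the call at an FDR under 0.01. The chromosome 19 run at the left has 6 of 7 members higher, the chromosome 7 run beside it has 6 of 7 lower, and the run from ZNF845 to ZNF813 lies near 0.

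Promoters from both long runs are shown because their members moved in opposite directions. The RefSeq promoter table (build GRCh38.p14, 250 bases before to 50 bases after the start) held 76 of the 106 members. The called members of these runs with an entry are printed, other than the end member ZNF775, which rose in the chromosome 7 run. In the printed set direction and run therefore coincide, and a difference by direction cannot be told apart from a difference by run. Sequences are given 5′ to 3′ on the strand of the gene, and capitals mark a match on either strand to CCAAT (the motif of NF-Y) or CACGTG (the E-box of MYC and MAX). From the chromosome 19 run these are 3 members that rose.
ZNF823, chr19:11738897-11739196, minus strand: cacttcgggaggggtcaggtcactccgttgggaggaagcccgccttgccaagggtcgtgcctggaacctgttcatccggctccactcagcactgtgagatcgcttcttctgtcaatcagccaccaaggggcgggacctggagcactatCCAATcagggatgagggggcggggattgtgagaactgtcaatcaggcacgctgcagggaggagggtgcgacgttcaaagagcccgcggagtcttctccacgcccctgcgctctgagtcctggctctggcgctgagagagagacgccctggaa
ZNF878, chr19:12052912-12053211, minus strand: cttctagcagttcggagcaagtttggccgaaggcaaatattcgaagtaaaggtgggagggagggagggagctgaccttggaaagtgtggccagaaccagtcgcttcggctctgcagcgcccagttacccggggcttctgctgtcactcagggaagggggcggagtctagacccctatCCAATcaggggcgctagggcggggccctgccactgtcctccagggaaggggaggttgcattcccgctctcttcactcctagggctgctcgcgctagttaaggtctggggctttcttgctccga
ZNF844, chr19:12064481-12064780, plus strand: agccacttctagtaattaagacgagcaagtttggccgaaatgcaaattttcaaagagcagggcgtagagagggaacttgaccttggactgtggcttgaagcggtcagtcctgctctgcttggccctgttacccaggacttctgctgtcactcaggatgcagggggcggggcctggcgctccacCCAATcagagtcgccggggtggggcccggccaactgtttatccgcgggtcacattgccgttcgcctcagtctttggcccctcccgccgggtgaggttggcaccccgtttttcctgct
From the chromosome 7 run these are 3 members that fell.
ZNF786, chr7:149090669-149090968, minus strand: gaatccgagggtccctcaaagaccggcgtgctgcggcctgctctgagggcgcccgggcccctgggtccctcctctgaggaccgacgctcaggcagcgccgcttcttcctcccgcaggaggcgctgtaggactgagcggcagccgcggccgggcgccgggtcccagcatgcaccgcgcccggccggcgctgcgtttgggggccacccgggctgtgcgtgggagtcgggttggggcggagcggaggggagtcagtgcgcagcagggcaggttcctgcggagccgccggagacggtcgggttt
ZNF783, chr7:149261946-149262245, plus strand: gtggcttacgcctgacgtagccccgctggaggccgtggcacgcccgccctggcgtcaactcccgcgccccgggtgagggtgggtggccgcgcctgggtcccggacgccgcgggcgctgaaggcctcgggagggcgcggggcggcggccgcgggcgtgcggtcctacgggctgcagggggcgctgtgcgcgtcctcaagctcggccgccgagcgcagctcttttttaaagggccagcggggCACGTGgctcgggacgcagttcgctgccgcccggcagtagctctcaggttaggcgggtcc
ZNF862, chr7:149838125-149838424, plus strand: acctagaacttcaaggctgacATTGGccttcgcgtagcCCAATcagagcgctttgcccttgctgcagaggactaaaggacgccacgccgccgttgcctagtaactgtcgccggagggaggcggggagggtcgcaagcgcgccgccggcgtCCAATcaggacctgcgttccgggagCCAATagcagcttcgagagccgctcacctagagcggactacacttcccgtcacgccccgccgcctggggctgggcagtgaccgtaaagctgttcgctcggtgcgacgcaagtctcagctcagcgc

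Each of the 3 rising members printed has a single CCAAT, between 67 and 102 bases before the start. ZNF878 and ZNF844, which follow each other in the run, share an identical stretch of 18 bases in this window. ZNF786 has neither motif, ZNF783 has no CCAAT and a single E-box 10 bases before the start, while ZNF862 has 4 matches to CCAAT, of which 1 is on the opposite strand. The G and C content was 59% to 62% in the 3 rising members and 74.3%, 75.7% and 64.3% in ZNF786, ZNF783 and ZNF862.

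Over all 76 member promoters, CCAAT was found in 61.8%, where 35.7% of all 27305 promoters held it. By call, it was found in 20 of 30 members that were higher, in 9 of 15 that were lower and in 14 of 23 that were not called, which is 66.7%, 60% and 60.9%. The ETS motif CCGGAAGT was found in 14.5% of member promoters and in 4.44% of all. By call, it was in 3 of 30 higher, 3 of 15 lower and 5 of 23 uncalled members, which is 10%, 20% and 21.7%. The E-box CACGTG was found in 3.95% of member promoters and in 7.43% of all, and the interferon response element core GAAANNGAA in 5.26% and 8.29%. The cyclic AMP response element TGACGTCA was found in 0 of the 76 member promoters and in 1.98% of all. None of these motifs contains another, and a match is a description of letters and not a bound site.

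A list was also read of KRAB cofactors together with other genes of H3K9 methylation, DNA methylation and silencing. In this mixed list the shares of calls lay near those of all genes. Of 25 listed genes 24 were tested, with 9 higher and 8 lower (37.5% and 33.3%, where 31.9% and 32.1% of all genes were called), a median log2 fold change of 0.02 and only 1 change beyond 2.5-fold. TRIM28, the scaffold bound by the KRAB domain, had 980, 884 and 856 CPM without treatment and 636, 589 and 559 CPM after maltonis. All treated libraries were lower, with a log2 fold change of -0.61 ± 0.07 (SE, adjusted p = 8.79e-05).

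SETDB1, the H3K9 methyltransferase brought in by TRIM28, had 70.7, 67.0 and 68.4 CPM without treatment and 113, 112 and 121 CPM after maltonis, and rose by 0.75 ± 0.06 on the log2 scale (SE, adjusted p = 5.31e-06). The HP1 genes CBX1 and CBX3 fell, with log2 fold changes of -1.27 ± 0.12 and -0.75 ± 0.09 (SE), while CBX5 at -0.02 ± 0.11 did not pass the test. The deacetylase genes HDAC1 and HDAC2 did not pass the test either, at 0.04 ± 0.06 and -0.01 ± 0.06 (SE).

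The largest change in the list was that of DNMT3B, a de novo DNA methyltransferase, which had 195, 197 and 183 CPM without treatment and 45.4, 42.1 and 42.3 CPM after maltonis, a log2 fold change of -2.15 ± 0.06 (SE, adjusted p = 3.52e-08). DNMT1 and DNMT3A, the maintenance and the other de novo enzyme, rose by 0.37 ± 0.07 and 0.51 ± 0.08 on the log2 scale (SE). Among other H3K9 methyltransferase genes SUV39H1 rose and SUV39H2 and EHMT2 fell, with log2 fold changes of 0.43 ± 0.06, -0.71 ± 0.06 and -0.38 ± 0.07 (SE). Of the genes of the HUSH silencing complex, MPHOSPH8 rose by 0.52 ± 0.12 and PPHLN1 fell by 0.38 ± 0.06 (log2 scale, SE). FAM208A at -0.15 ± 0.07 was not called, although every treated library lay below every untreated one. Also in the list, MORC2 fell by 0.83 ± 0.07 and MORC3 rose by 0.63 ± 0.06 (log2 scale, SE).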

How the data were processed

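RNA was measured in 6 libraries of NB4 cells, 3 not treated and 3 treated with maltonis. The authors deposited 1 table of raw counts per library, made with HTSeq, where each value is the number of reads on a gene symbol, and the submitters' processing notes also name TopHat, Bowtie2 and the build hg19. The annotation, the overlap mode and the strand setting of the counting are not given in the sources used here, so overlapping, antisense and paralogous genes are uncertain. Groups and replicate numbers were taken from the labels. Replicate libraries differed by more than sampling noise (chi-square per degree of freedom from 4.15 to 33.1) and each was counted as a sample.

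Counts of all genes were fitted in R 4.3.3 with edgeR 4.0.16 (filterByExpr, TMM, glmQLFit and glmQLFTest), with Benjamini-Hochberg adjustment over 13209 genes, and members were read from this fit. Tested on simulated data over 13084 genes, the procedure called 39 of 48 genes set to a log2 change of -1 and 44 of 50 set to 1, with 4 false calls. In the simulation few genes changed, balanced in direction, and no difference by library code was set. In the data 64.0% of the tested genes were called, so these counts hold for the simulated setting only. RPKM were computed from summed exon lengths of GENCODE 29, found for 21647 of 23368 symbols and all members. RefSeq names matched all 106 members, 6 of them by a synonym. Its tables (GRCh38.p14) gave chromosomes, gene order and promoters, and no coordinates of genes were carried over to hg19. Fingers were counted as C, 2 to 4 residues, C, 12 residues, H, 3 to 5 residues, H, in the longest coding sequence, and KRAB matches in any coding transcript.

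The members and lists were chosen with earlier results of these data known. Genes were named by a rule: the 10 largest increases and decreases at an FDR under 0.01 without overlap and with a mean of at least 20 counts in the higher group, the 6 highest in CPM and the members of the 2 longest runs. ZNF711, ZNF729, ZNF750, ZNF804A, ZNF827, ZNF830 and the members of other runs were named after their values were seen. Deviations of same-numbered libraries from their group means correlated at 0.41, 0.14 and 0.22. Replicates 2 and 3 correlated across numbers about as much (0.24 and 0.21), so these values do not show that their numbers pair them. The main fit used no pairing, and the replicate numbers entered only as a block in an alternative. Alternatives were other scalings, DESeq2 1.42.0, other filters, a replicate block, the library code, an FDR of 0.05, narrower member lists and leaving out each library.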

Additional observations from a re-analysis of the deposited data

How the results depend on the processing

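Under none of the alternatives run was a called member called in the opposite direction. With the replicate numbers as a block, 40 members were higher and 20 lower (46.5% and 23.3%, where 34.8% and 35.0% of all genes were). All 38 and 19 calls were kept, ZNF727, ZNF784 and ZNF837 were added and no other call changed. Leaving out 1 library at a time gave 29 to 41 higher and 18 to 20 lower members. As shares these were 33.7% to 47.1% and 20.7% to 23.3%, where 26.4% to 31.9% and 28.4% to 32.8% of all genes were called. Beyond 2.5-fold the same fits gave 12 to 16 higher and 3 to 6 lower members, and the median log2 fold change was 0.16 to 0.32. Without maltonis replicate 2, 3 members were lower beyond 2.5-fold, against 5 with all libraries. ZNF740 lost its call without maltonis replicate 2 or 3.

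Scaling by library totals alone moved the median of all genes by 0.12, and that of the members to 0.38. With upper quartile factors the median of the members was 0.35. Relative to all genes it was 0.25 with each scaling. The median itself was 0.28 with a filter of 1 CPM in 3 libraries and 0.33 with code B alone. Among the 55 tested members with a KRAB match 25 were higher and 12 lower, with 1 lower beyond 2.5-fold (1.82%, where 10.4% of all genes were). Of the 24 with a coding sequence and no match 3 were lower beyond 2.5-fold (12.5%), and 1 without maltonis replicate 2. This difference was not tested. DESeq2 kept 38 higher and 18 lower calls and lost ZNF781, and gave no adjusted p for 4 members. The uncalled ZNF800 changed sign with library totals (0.036) and upper quartile factors (0.0038), ZNF710 without maltonis replicate 1 (range over left-out libraries -0.089 to 0.13) and ZNF721 without not treated replicate 3 (-0.35 to 0.013). Depth limits the 20 members that were not tested, and ZNF781, ZNF833P and ZNF843 dropped out of the test under the filter of 1 CPM.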
